A study of Mus musculus with 4 samples.

Results

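Support of macrophages by the stroma of the ascending aorta was followed through 8 genes: the ligands Csf1, Il34, Gas6 and Mif and the receptors Csf1r, Axl, Mertk and Cd74. They were chosen by name, with earlier results of these data known, from the 18112 genes common to all 3 libraries. Each gene was read in 3 classes of cells defined by UMIs (unique molecular identifiers, each a captured transcript) of other genes. Smooth muscle cells had at least 5 Myh11 UMIs and 0 of Pdgfra, fibroblasts at least 1 of Pdgfra and at most 2 of Myh11, and macrophages at least 10 of C1qa, C1qb and Lyz2 together and fewer than 5 of Myh11.

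The study compared how cells of the mouse ascending aorta that come from the second heart field (SHF) and from other origins respond to angiotensin II (AngII), the pressor peptide of the renin system. All libraries came from male mice of the strain Mef2c-mTmG, whose age and number per library the labels do not give. In mTmG mice, cells that have seen Cre recombinase switch from a membrane red to a membrane green fluorescent protein, and living cells were sorted by lineage tracking before droplet capture. The labels name no driver of the Cre beyond Mef2c. The libraries were SHF baseline (no infusion), SHF AngII and CNC AngII, the infused mice having received AngII for 3 days. The labels leave CNC as an abbreviation, and a sample of that lineage without infusion was not analysed here. Each group was 1 library, so no test was made, no difference has a replicate check, and every interval is a 95% interval of counting error only.

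A pair of cytokines sustains tissue macrophages through the receptor Csf1r: Csf1, which stromal cells secrete widely, and Il34, best known from skin and brain. Gas6 bridges phosphatidylserine on dying cells to the TAM receptor kinases Axl and Mertk, Mertk being the one that resident macrophages use most to clear apoptotic cells. Mif is a cytokine stored in the cytoplasm of most cells, and Cd74, its surface receptor, is also the invariant chain of MHC class II in antigen-presenting cells.

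The 250 bases before the RefSeq start are shown 5′ to 3′ (GRCm38.p6, gene strand) for Csf1, Gas6, Axl and Mertk. Csf1 and Gas6 were the ligands called higher in fibroblasts than in smooth muscle in every library. Axl and Mertk were the receptors that went opposite ways between fibroblasts and macrophages of CNC AngII. Capitals mark the matches to any of 5 motifs on either strand.
Csf1: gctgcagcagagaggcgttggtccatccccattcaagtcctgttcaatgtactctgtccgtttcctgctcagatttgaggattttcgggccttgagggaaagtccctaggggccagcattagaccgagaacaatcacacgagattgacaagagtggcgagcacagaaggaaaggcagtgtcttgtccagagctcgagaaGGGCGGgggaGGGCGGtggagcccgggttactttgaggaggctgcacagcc
Gas6: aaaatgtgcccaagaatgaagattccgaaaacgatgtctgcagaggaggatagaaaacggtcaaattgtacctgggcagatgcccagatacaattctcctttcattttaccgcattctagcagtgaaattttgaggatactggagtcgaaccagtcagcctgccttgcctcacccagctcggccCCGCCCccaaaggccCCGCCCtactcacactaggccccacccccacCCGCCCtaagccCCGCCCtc
Axl: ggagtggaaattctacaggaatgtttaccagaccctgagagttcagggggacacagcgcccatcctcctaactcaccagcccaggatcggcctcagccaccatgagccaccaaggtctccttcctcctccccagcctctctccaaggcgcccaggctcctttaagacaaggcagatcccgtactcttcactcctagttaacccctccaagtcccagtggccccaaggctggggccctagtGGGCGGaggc
Mertk: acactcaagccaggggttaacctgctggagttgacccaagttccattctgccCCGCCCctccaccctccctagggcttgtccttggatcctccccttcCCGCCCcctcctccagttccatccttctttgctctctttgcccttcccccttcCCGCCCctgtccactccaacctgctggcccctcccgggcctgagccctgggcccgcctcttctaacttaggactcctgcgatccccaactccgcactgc
They lie at chr3:107760470-107760719 (minus strand), chr8:13494536-13494785 (minus), chr7:25788734-25788983 (minus) and chr2:128698665-128698914 (plus). The motifs were the GC box GGGCGG, the CCAAT box CCAAT, the AP-1 site TGANTCA, the TATA box TATAAA and the CArG box of smooth muscle genes. All 4 windows held the GC box, with 2 matches before Csf1, 4 before Gas6, 1 before Axl and 3 before Mertk, and no matches overlapped. None of the 4 held any of the other motifs. Among 32851 windows of the same length before all starts in the table, 32.7% held the GC box, 33.9% the CCAAT box, 12.4% the TATA box, 6.75% the AP-1 site and 1.47% the CArG box. A match describes letters only.

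After filtering, SHF baseline had 8374 cells, SHF AngII 9299 and CNC AngII 10194, with median depths of 10316, 13325 and 12610 UMIs. The classes took in 2259, 4649 and 6385 smooth muscle cells, 3938, 2638 and 834 fibroblasts, and 7, 11 and 1756 macrophages, in the same order of libraries, and 11.9% to 25.9% of cells met no rule. Cells that met both the fibroblast and the macrophage rule, 1, 2 and 8 in number, were counted in neither class. The sort decides which cells enter a library, so class sizes are no measure of the aorta. Pairs of libraries shared 29 to 34 cell barcodes. All 7 smooth muscle markers stood at 10 CPM or more in smooth muscle cells of each library. CPM is the UMIs of a gene scaled to the sum of all UMIs of that class in that library. The same held for all 7 fibroblast markers in fibroblasts and all 9 macrophage markers in macrophages. Myh11, Pdgfra, C1qa, C1qb and Lyz2 are among these markers and were set by the class rules. In the SHF macrophages 1 UMI is already 14.3 or 10.9 CPM, so that level says little there. In smooth muscle cells 5, 5 and 3 fibroblast markers also reached 10 CPM. Their list summed there to 2629, 3267 and 3374 CPM, against 31167, 19720 and 17106 in fibroblasts. The summed macrophage markers of the smooth muscle class stood at 2.44, 1.34 and 375 CPM, and 80 smooth muscle cells of CNC AngII, against 1 and 0 in the SHF libraries, held 10 or more UMIs of the macrophage rule. The few SHF macrophages also held 5502 and 3984 CPM of fibroblast markers and, in SHF AngII, 7403 CPM of smooth muscle markers, whose part in their levels was not tested. Genes are compared below within themselves only, since 3′ UMI counts of different genes need not be captured alike.

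Csf1, the main growth factor of macrophages, was a fibroblast ligand in all 3 libraries. Its level in fibroblasts was 110 CPM (95% interval 107 to 114) at SHF baseline, 146 (142 to 149) under SHF AngII and 164 (157 to 172) under CNC AngII. Smooth muscle cells held 21.5, 19.1 and 16.2 CPM, and the 1756 macrophages of CNC AngII held 2.57 CPM, from 53 UMIs. Fibroblasts were highest and macrophages lowest, with no overlap of intervals between classes in CNC AngII or between fibroblasts and smooth muscle in the SHF libraries. Fibroblasts thus stood above smooth muscle by a log2 ratio of 2.31 at SHF baseline, 2.87 under SHF AngII and 3.26 under CNC AngII (log2 of CPM + 1, as throughout). With each cell thinned to 4000 UMIs, Csf1 was seen in 33.9%, 40.3% and 40.9% of fibroblasts, in 7.61%, 7.04% and 5.89% of smooth muscle cells and in 0.816% of CNC AngII macrophages. Unthinned, the fibroblast shares were 55.2%, 76.6% and 70.4%, at median depths of 9534, 15484 and 12344 UMIs, against 2.90% of macrophages at a median of 11102.

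Fibroblast RNA in smooth muscle droplets was measured in 2 ways, which gave different answers for Csf1. The measure planned for it took Dcn, Lum, Col1a1 and Col3a1 as the reference: were all their UMIs in smooth muscle free fibroblast RNA, Csf1 carried along in the fibroblast ratio would account for 55.2% of the smooth muscle Csf1 at baseline and for 111% and 162% of it in the AngII libraries of SHF and CNC. Both AngII values are more Csf1 than the smooth muscle cells held. Collagen genes, which smooth muscle also makes, weigh in that reference: Col1a1 and Col1a2 stood in smooth muscle at 19.2% to 39.3% of their fibroblast levels.

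The other measure, chosen after these values were seen, took single fibroblast markers that the class rules did not use. Csf1 in smooth muscle stood at 19.4%, 13.1% and 9.89% of its fibroblast level in SHF baseline, SHF AngII and CNC AngII. Pi16 stood at 0.536%, 0.884% and 0.395%, Dpep1 at 0.577%, 1.10% and 0.234%, Dcn, a matrix proteoglycan, at 2.0%, 3.01% and 0.435%, and Lum, another, at 4.34%, 5.56% and 0.794%. Csf1 was thus above each of these 4 markers in every library and below both collagen genes in the AngII libraries. The first measure counts as free RNA the collagen RNA that smooth muscle makes itself, and the single markers do not include it. The part of free RNA in the smooth muscle Csf1 was not tested.

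**Figure D1:**
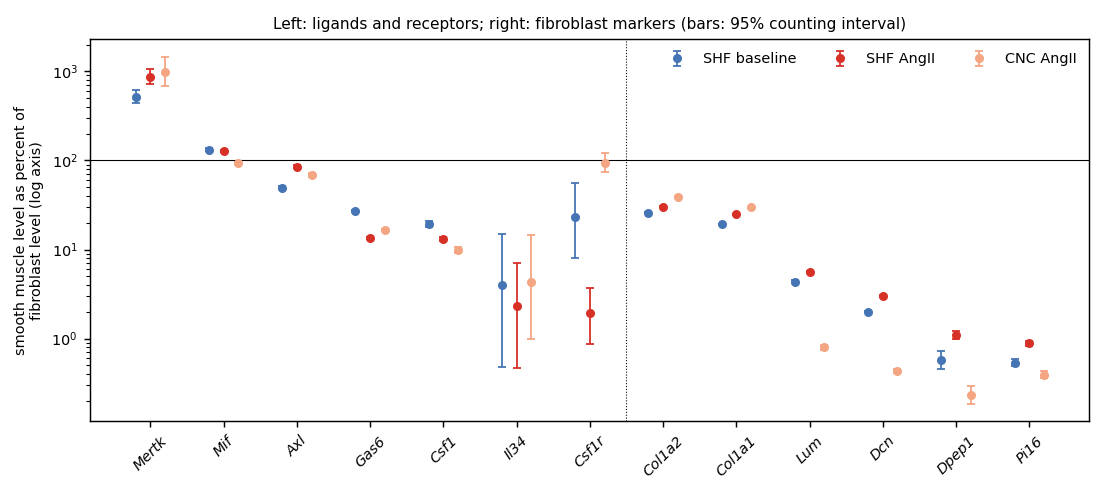
Smooth muscle level of each gene as a percent of its fibroblast level in the same library (vertical log axis, percent; points are libraries, bars 95% counting intervals), for 7 of the ligands and receptors at the left and 6 fibroblast markers at the right of the dotted line. Csf1 and Gas6 lie between 9.89% and 26.7%, Pi16, Dpep1, Dcn and Lum at or below 5.56%, Col1a1 and Col1a2 between 19.2% and 39.3%, and Mertk above 100%; Cd74 is not drawn.

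Il34, the other Csf1r ligand, was near the floor of detection and was likewise higher in fibroblasts than in smooth muscle. Fibroblasts held 64, 83 and 11 UMIs in SHF baseline, SHF AngII and CNC AngII, or 1.69, 1.85 and 0.973 CPM. Smooth muscle cells held 2, 3 and 4 UMIs. The 1756 macrophages held 0, which allows up to 3 UMIs or 0.145 CPM, so Il34 was not detectable there at this depth and macrophages cannot be ordered against smooth muscle. No ratio of Il34 was called, its mean CPM being below 10 in every comparison. Exons of Il34 (chromosome 8, 110741829 to 110805924, GRCm38) overlap 2 antisense genes, and whether the counting used strand is not given in the sources used here.

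Csf1r, the receptor of both, was read almost wholly in macrophages where these were captured. CNC AngII macrophages stood at 515 CPM (505 to 525), against 6.81 in fibroblasts and 6.39 in smooth muscle of that library, and held 92.8% of all its Csf1r UMIs. The few macrophages of SHF baseline and SHF AngII stood at 301 CPM (186 to 460, 21 UMIs in 7 cells) and 369 CPM (256 to 516, 34 UMIs in 11 cells). After thinning, 82.7% of CNC AngII macrophages had a Csf1r UMI.

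Low Csf1r counts outside macrophages differed between the libraries. In fibroblasts they were 33 UMIs for SHF baseline (0.871 CPM), 303 for SHF AngII (6.76 CPM) and 77 for CNC AngII (6.81 CPM), and the intervals of baseline and both AngII libraries did not overlap. The ratio of SHF AngII to SHF baseline in fibroblasts was 7.76, with a log2 interval of 2.43 to 3.52 before any pseudocount, but the mean was below 10 CPM, so it was not called. Both AngII libraries were thus higher than baseline in this class. In fibroblasts of SHF AngII, 8.38% of cells had a Csf1r UMI against 0.787% in SHF baseline, or 2.04% and 0.264% after thinning. The 9 macrophage markers summed to 9.70 CPM in those SHF AngII fibroblasts and to 7.55 in SHF baseline, with C1qa, C1qb and C1qc at 0.156, 0.111 and 0.111 CPM in SHF AngII and higher in baseline. The summed macrophage markers were thus higher in SHF AngII and the 3 C1q genes lower, and the part of macrophage RNA in the Csf1r difference was not tested. In CNC AngII, free RNA carrying Csf1r in the macrophage ratio to C1qc, Tyrobp and Fcer1g would account for 14.5% of the fibroblasts' Csf1r and for 86.3% of that of smooth muscle. Without the 80 smooth muscle cells rich in macrophage RNA, the log2 ratio of CNC AngII to SHF AngII in smooth muscle went from 2.71 to 1.27. The smooth muscle ratio was thus smaller without those cells. Exons of Csf1r (chromosome 18, 61100598 to 61132149, plus strand) share 873 bases with Hmgxb3 on the opposite strand, and Hmgxb3 stood at 7.94 and 8.56 CPM in fibroblasts of SHF baseline and SHF AngII. The gene lists of the baseline and AngII files also differ, while smooth muscle Csf1r was 0.203 CPM in SHF baseline and 0.130 in SHF AngII; the part of the gene list in the fibroblast difference was not tested.

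Gas6, the TAM ligand, was highest in fibroblasts in every library, and in CNC AngII macrophages also stood above smooth muscle. Fibroblasts held 918 CPM (908 to 927) at SHF baseline, 1183 (1173 to 1193) under SHF AngII and 751 (735 to 767) under CNC AngII. Smooth muscle cells held 245, 160 and 123 CPM, with intervals that did not overlap between any 2 of the libraries. CNC AngII macrophages held 589 CPM (579 to 600), below fibroblasts of the same library by a log2 ratio of -0.35 and above its smooth muscle. The few macrophages of SHF baseline held 129 CPM (59.0 to 245, 9 UMIs) and those of SHF AngII 174 CPM (99.3 to 282, 16 UMIs), and neither interval was separate from that of smooth muscle in the same library. Of all Gas6 UMIs of CNC AngII, 32.2% lay in macrophages, 31.3% in smooth muscle cells and 22.5% in fibroblasts, a split that also carries the number of cells sorted. Macrophages, fewer than the smooth muscle cells but at a higher level, held about as many Gas6 UMIs as these did. The log2 ratio of fibroblasts to smooth muscle was 1.90 at SHF baseline, 2.87 under SHF AngII and 2.60 under CNC AngII. Gas6 was found in 76.2%, 77.7% and 70.6% of thinned fibroblasts and in 57.2%, 40.0% and 37.6% of thinned smooth muscle cells. Within CNC AngII, 65.3% of thinned macrophages had both a Gas6 and a Csf1r UMI. Most macrophages thus held the TAM ligand beside their growth factor receptor. Fibroblast RNA in the ratio to Dcn, Lum, Col1a1 and Col3a1 would account for 0.711% of the Gas6 in macrophages. By the same measure it would account for 40.2% of the smooth muscle Gas6 at baseline and for 107% and 97.4% in the AngII libraries of SHF and CNC. Collagen genes that smooth muscle also makes weigh in that reference, and the part of free RNA in the smooth muscle Gas6 was not tested. By single markers the answer differed, as for Csf1: Gas6 in smooth muscle stood at 26.7%, 13.6% and 16.4% of its fibroblast level, above Pi16, Dpep1, Dcn and Lum in every library. Exons of Gas6 share 34 bases with Tmem255b on the opposite strand, which stood at 0.531 CPM or less in every stromal class.

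Axl and Mertk, the receptors of Gas6, went opposite ways between fibroblasts and macrophages of CNC AngII, while smooth muscle held both. Axl stood at 261, 133 and 168 CPM in fibroblasts of SHF baseline, SHF AngII and CNC AngII, at 130, 114 and 117 CPM in smooth muscle, and at 9.55 CPM (8.26 to 11) in CNC AngII macrophages. In CNC AngII both stromal classes thus held more Axl than macrophages. The 7 and 11 macrophages of SHF baseline and SHF AngII held 129 CPM from 9 UMIs and 54.3 CPM from 5, with intervals (59.0 to 245 and 17.6 to 127) that included the smooth muscle levels of their libraries. Fibroblast Axl was 2.01-fold above smooth muscle in SHF baseline, a call lost under 5 of 15 alternative settings, and within 2-fold in both AngII libraries (0.22 and 0.53). Under TMM scaling the SHF baseline ratio was 0.72 and that of SHF AngII was -0.01, a change of sign.

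Mertk was highest where Axl was lowest in CNC AngII, in macrophages. Smooth muscle cells held 26.7, 23.4 and 26.1 CPM in SHF baseline, SHF AngII and CNC AngII, fibroblasts 5.12, 2.70 and 2.65 CPM, and CNC AngII macrophages 43.2 CPM (40.5 to 46.2). Its smooth muscle levels lay within 4 CPM of each other in the 3 libraries. Fibroblasts stood below smooth muscle by log2 ratios of -2.18, -2.72 and -2.89. After thinning, 9.23%, 9.12% and 9.29% of smooth muscle cells and 14.9% of CNC AngII macrophages had a Mertk UMI, against 1.96%, 1.38% and 0.887% of fibroblasts. Macrophage RNA in the ratio to C1qc, Tyrobp and Fcer1g would account for 1.78% of the smooth muscle Mertk of CNC AngII. Smooth muscle and macrophages thus both held Mertk mRNA, of which fibroblasts held little.

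Mif was spread evenly over the classes. Smooth muscle cells held 161, 266 and 204 CPM, fibroblasts 121, 210 and 218 CPM, and CNC AngII macrophages 252 CPM. No comparison of Mif between classes or libraries reached 2-fold, the largest being the log2 ratio of 0.79 between SHF AngII and SHF baseline in fibroblasts, which stood at 1.0 under TMM scaling and so just past 2-fold. Mif (chromosome 10, 75859353 to 75860240, minus strand) has processed pseudogenes in RefSeq whose reads may be shared with it, so its level is uncertain.

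Cd74, the receptor of Mif, was highest in macrophages. CNC AngII macrophages held 1436 CPM, and the 7 and 11 macrophages of SHF baseline and SHF AngII held 15216 and 7175 CPM. The 7 of SHF baseline also held 115 CPM of dendritic cell markers, all of it Xcr1. These markers summed to 0 in the macrophages of SHF AngII and to 9.65 CPM in those of CNC AngII. The part of dendritic cells in the Cd74 of this class was not tested. Smooth muscle cells stood at 19.3, 3.57 and 35.1 CPM and fibroblasts at 22.5, 0.981 and 2.83 CPM. Macrophages were far above both stromal classes. In SHF baseline 52 of 3938 fibroblasts had a Cd74 UMI and the top 10 cells held 79.9% of the UMIs. In smooth muscle the top 10 cells held 88.1% of them in SHF baseline and 78.4% in CNC AngII. Macrophage RNA in the ratio to C1qc, Tyrobp and Fcer1g would account for 43.8% of the Cd74 of smooth muscle and 97.1% of that of fibroblasts in CNC AngII. In SHF baseline fibroblasts the markers of macrophages summed to 7.55 CPM, of dendritic cells to 6.23 and of B cells to 0.158. In fibroblasts of CNC AngII, by contrast, 32 UMIs were spread over 27 cells with at most 4 in any, and 257 smooth muscle cells of CNC AngII had a Cd74 UMI. Most stromal Cd74 UMIs of SHF baseline and of CNC AngII smooth muscle therefore came from 10 cells in each class, and what sets those cells apart was not tested.

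**Figure D2:**
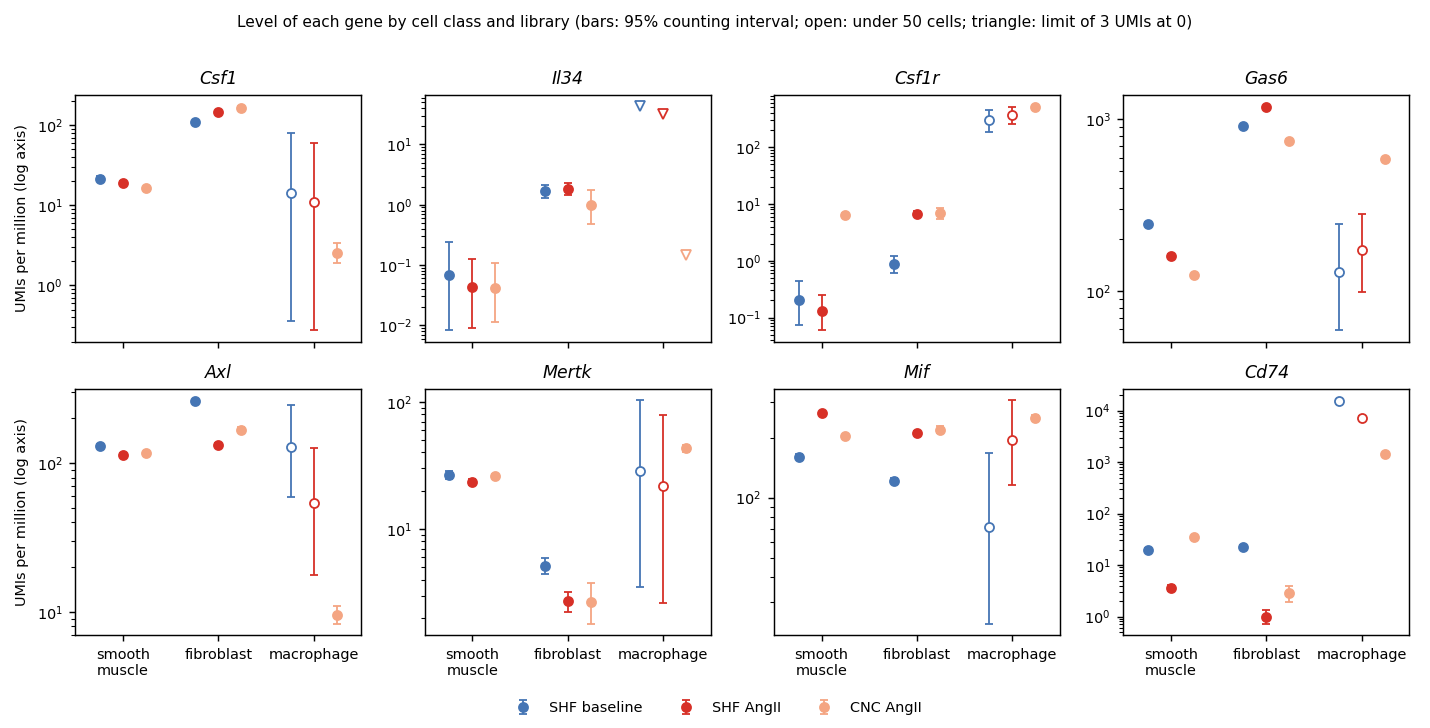
Level of each of the 8 genes by class (horizontal axis) and library (colour), in CPM on a log axis; bars are 95% counting intervals, open points are the SHF macrophages (7 and 11 cells) and triangles the limit of 3 UMIs where none was found. Csf1 and Il34 are highest in fibroblasts, Csf1r and Cd74 in macrophages, and Mertk is lower in fibroblasts than in both other classes of CNC AngII.

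Few of these genes differed much with AngII in SHF cells. In smooth muscle 1 of the 6 members with a mean of at least 10 CPM was past 2-fold, Cd74 being lower in SHF AngII (log2 ratio -2.15), against 6.38% of all 7001 genes. In fibroblasts 1 of 5 was past 2-fold, again Cd74 (-3.57), against 15.4% of all 7692 genes, and most of the baseline UMIs behind both calls came from the few cells described above. The members' median log2 ratios were -0.19 and 0.37, beside -0.10 and -0.21 for all genes. Axl in fibroblasts lay just inside the limit, at 261 CPM in SHF baseline and 133 in SHF AngII (-0.97), and passed it under 2 of 15 alternative settings. The ligands differed less. Csf1 gave -0.16 in smooth muscle and 0.40 in fibroblasts, and Gas6 gave -0.61 in smooth muscle and 0.37 in fibroblasts, all within 2-fold. Under TMM scaling, the all-gene median log2 ratio shifted by 0.16 in smooth muscle and 0.21 in fibroblasts, to 0.05 and -0.01 from -0.10 and -0.21, and the smooth muscle ratio of Csf1 was then -0.01. A stricter cell filter left 120 of the 2259 smooth muscle cells of SHF baseline and 1593 of the 4649 of SHF AngII. Under it Gas6 in smooth muscle reached -1.05, and so passed 2-fold, and Csf1 reached -0.53. AngII and baseline are separate libraries. Their gene lists and the share of smooth muscle cells passing that filter differ as well as the treatment, and these cannot be told apart.

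Between the 2 AngII libraries, CNC over SHF, the stroma differed little. In smooth muscle 1 of 6 members was past 2-fold, Cd74 being higher in CNC AngII (2.98), against 0.798% of 6766 genes. Without the 80 cells rich in macrophage RNA its ratio was 1.75 and its mean was below 10 CPM, so that 0 members were called. In fibroblasts 0 of 4 members were past 2-fold, against 0.514% of 7205 genes. The largest of these 4 ratios was that of Gas6, at 751 CPM in CNC AngII and 1183 in SHF AngII (-0.66), a level also lower in smooth muscle (-0.38). Csf1 stood at -0.22 in smooth muscle and 0.17 in fibroblasts, and Axl at 0.03 and 0.34. Both sets of comparisons share the SHF AngII library. The origin and the cell content of the sort go together here, so these cannot be told apart. CNC AngII had 1756 macrophages and 834 fibroblasts, SHF AngII 11 and 2638. Dcn, Lum, Pi16 and Dpep1 were lower in smooth muscle of CNC AngII (Dcn 20.3 against 174 CPM), while Col1a1 and Col1a2 were higher. With free RNA subtracted, the smooth muscle ratios were -0.07 for Csf1 and -0.25 for Gas6. The part of fibroblast RNA alone was not tested.

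**Figure D3:**
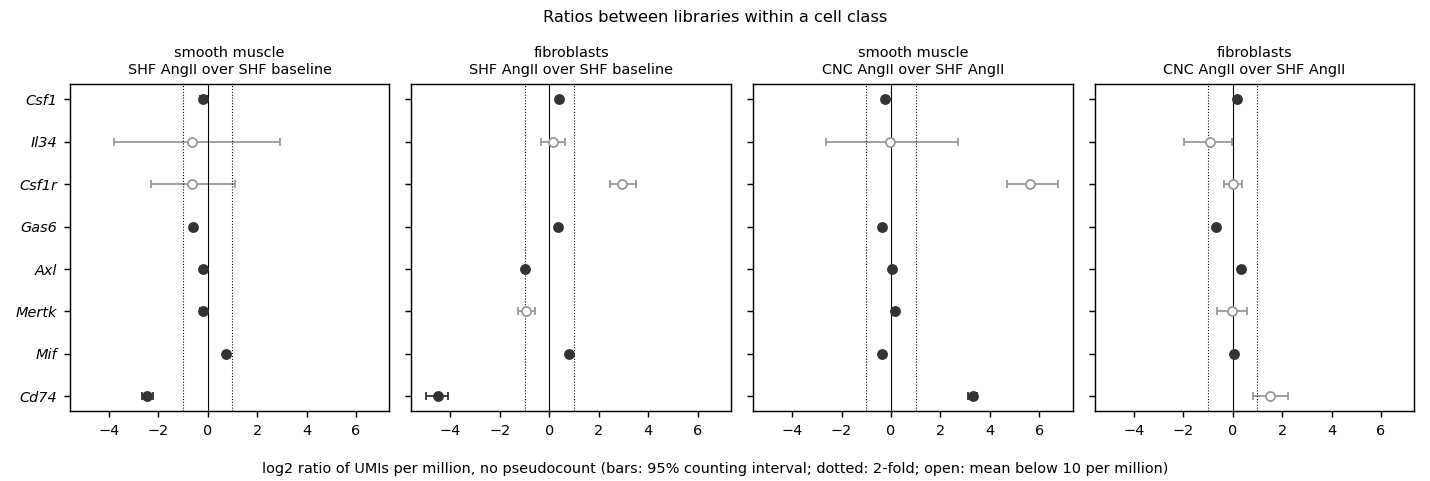
log2 ratio of CPM between libraries within a class, without pseudocount (horizontal axis), for each gene; bars are 95% counting intervals, dotted lines mark 2-fold and open points genes with a mean below 10 CPM. Cd74 lies past 2-fold in both AngII comparisons with baseline, and Csf1, Gas6, Mertk and Mif lie within it wherever their points are filled.

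Between classes the members were called more often. Fibroblasts over smooth muscle gave 4 of 6 past 2-fold in SHF baseline (Csf1, Gas6 and Axl higher, Mertk lower), against 21.4% of 7734 genes. The same comparison gave 3 of 5 in SHF AngII (Csf1 and Gas6 higher, Mertk lower), against 22.4% of 7190 genes, and 4 of 6 in CNC AngII, where Cd74 was lower too, against 21.5% of 7234 genes. That last Cd74 ratio of -3.24 changed sign to 0.13 when 8 cells meeting both rules were counted in both classes. TMM scaling moved the all-gene median of these 3 comparisons by -0.27, -0.22 and -0.22. Macrophages over fibroblasts in CNC AngII gave 5 of 7 past 2-fold, against 36.2% of 7754 genes: Csf1r (6.05), Mertk (3.60) and Cd74 (8.55) were higher in macrophages, Csf1 (-5.53) and Axl (-4.01) lower, and Gas6 and Mif lay within 2-fold.

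Other genes of these pathways were read from 4 lists chosen with earlier results known. Of the TAM and efferocytosis list, 9 of 13 genes had a mean of 10 CPM in the AngII comparison. Of these, 0 passed 2-fold in smooth muscle or in fibroblasts, against 6.38% and 15.4% of all genes. Their medians were -0.09 and -0.22 beside -0.10 and -0.21 for all genes. Pros1, the other TAM ligand, kept to 33.9, 29.0 and 24.5 CPM in smooth muscle and 64.6, 63.4 and 53.1 in fibroblasts. Mfge8, an integrin-binding bridge to dying cells, was higher in smooth muscle, at 718, 1120 and 1361 CPM, than in fibroblasts, at 194, 166 and 184. Of the chemoattraction list, 3 of 4 tested genes rose with AngII in fibroblasts (list median 1.59, all genes -0.21), against 4.63% of all genes, and in smooth muscle the 1 gene tested lay within 2-fold. Ccl2 and Ccl7 in smooth muscle, at 2.91 and 1.46 CPM in SHF baseline and 9.73 and 7.93 in SHF AngII, had ratios of 3.34 and 5.45 with log2 intervals of 1.42 to 2.08 and 2.0 to 2.93, but their means were below 10 CPM. In fibroblasts Ccl2 and Ccl7, ligands of the monocyte receptor Ccr2, went from 103 and 101 CPM in SHF baseline to 473 and 705 in SHF AngII. Cxcl12 went from 217 to 437 there, a log2 ratio of 1.01 and so just past 2-fold. All genes of that list that were tested between fibroblasts and smooth muscle, 3 in SHF baseline and 4 in each AngII library, were past 2-fold higher in fibroblasts, as Csf1 was, against 13.9%, 12.9% and 12.0% of all genes. Ccl2 and Ccl7 reached 1140 and 909 CPM in CNC AngII macrophages, where Csf1 stood at 2.57 CPM. Of the 11 genes of the CSF list, only 1 was tested with AngII in smooth muscle, so the list cannot be read there. It was Ptprz1, a receptor phosphatase that binds Il34, at 266 CPM in SHF baseline and 127 in SHF AngII. Its log2 ratio of -1.06 was just past 2-fold, as were 6.38% of all genes in either direction. In fibroblasts Flt3l, the growth factor of dendritic cells, fell from 58.7 to 16.4 CPM. It was 1 of 3 tested (list median -0.76), against 15.4% of all genes. Of the MIF and CD74 list, the MHC class II genes H2-Aa, H2-Ab1 and H2-Eb1 stood at 8.55, 12.8 and 11.9 CPM in SHF baseline fibroblasts beside their Cd74, and at 351, 390 and 370 CPM in CNC AngII macrophages. Of that list 1 of 3 tested genes passed 2-fold with AngII in each class (medians 0.28 in fibroblasts and 0.06 in smooth muscle). The shares of all genes were 15.4% and 6.38%. The gene was the decoy receptor Ackr3, which fell from 691 to 235 CPM in fibroblasts. In smooth muscle Ackr3 went from 22.9 to 10.2 CPM, a log2 ratio of -1.09 and so just past 2-fold. TMM scaling shifted the all-gene median of that smooth muscle comparison by 0.16. It uses 1 factor per sum, and it moved Gas6 in that comparison from -0.61 to -0.45. A like shift would bring Ackr3 and Ptprz1 inside 2-fold, so both smooth muscle calls depend on the scaling. Between the AngII libraries 1 listed gene passed 2-fold, Tyrobp, an adaptor of myeloid receptors. It was 1 of 2 tested genes of the CSF list in smooth muscle, against 0.798% of all genes. Tyrobp was higher in smooth muscle of CNC AngII (22.0 CPM, against 0.0288 in SHF AngII) beside that library's macrophage RNA.

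Levels also differed within classes. Macrophages of CNC AngII were split by Lyve1, a marker of resident vessel-wall macrophages, and Ccr2, a marker of monocyte-derived cells, into 1175 cells with Lyve1 and without Ccr2, 453 with Ccr2 and 128 with neither. Gas6 stood at 725 CPM (711 to 739) in the Lyve1 cells and at 258 (244 to 272) in the Ccr2 cells, a ratio of 2.81 (2.65 to 2.98). Mertk went the same way, at 48.3 and 28.9 CPM (ratio 1.67, 1.39 to 2.01), and Csf1r likewise, at 546 and 405 CPM (1.35, 1.28 to 1.42). Axl went the opposite way, at 5.69 and 17.4 CPM (0.327, 0.239 to 0.448), and so did Cd74, at 80.2 and 5325 CPM. Mif did not separate them, at 255 and 243 CPM (1.05, 0.982 to 1.12). Thinned macrophages with a Gas6 UMI had a Mertk UMI in 16.7% of cells and those without in 7.99%, whereas for Axl the shares were 2.61% and 7.02%.

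Fibroblasts were split by Pi16, a marker of adventitial progenitor-like fibroblasts, which 3389, 2373 and 711 cells of SHF baseline, SHF AngII and CNC AngII carried. Csf1 was close in both, at 113 against 95.4 CPM at SHF baseline, 146 against 139 under SHF AngII and 166 against 151 under CNC AngII for cells with against without Pi16. The intervals of the 2 AngII ratios included 1. Gas6 was lower in cells with Pi16 in all 3 libraries, with ratios of 0.519, 0.767 and 0.776. Axl was higher, with ratios of 2.27, 1.36 and 1.44, and Mertk lower, with 0.389, 0.263 and 0.237. Those Mertk levels were only 1.91 to 10.9 CPM, in CNC AngII from 19 UMIs with and 11 without Pi16. Smooth muscle RNA in the ratio to Acta2, Tagln and Myl9 would account for 13.0%, 57.3% and 71.2% of fibroblast Mertk. Its part in the Pi16 split was not tested. Thinned fibroblasts with a Gas6 UMI had an Axl UMI in 48.2% of cells and those without in 73.4% at SHF baseline, while the shares were 37.9% and 46.8% under SHF AngII and 46.5% and 48.8% under CNC AngII. The gap was thus wide at baseline and small in CNC AngII. Split by Cthrc1, a gene of matrix-producing fibroblasts, Gas6 was lower in Cthrc1 cells, with ratios of 0.603, 0.805 and 0.535. Smooth muscle cells of SHF AngII with Igfbp2 held 137 CPM of Gas6 against 225 without (0.609, 0.586 to 0.633), and 17.2 against 24.3 CPM of Csf1 (0.707, 0.630 to 0.794), whereas in SHF baseline and CNC AngII the Gas6 ratios were 0.930 and 0.905. Median depth differed between these sub-states, for example 14708 against 10419 UMIs with and without Igfbp2, and its part in the ratios was not tested.

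**Figure D4:**
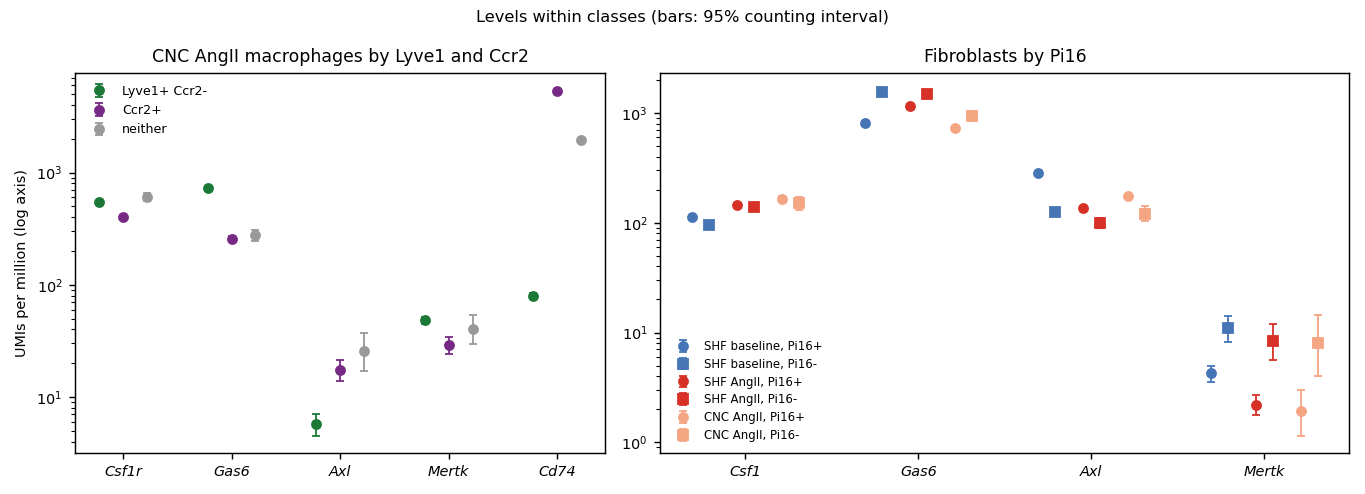
Levels within classes, in CPM on log axes with 95% counting intervals: left, CNC AngII macrophages by Lyve1 and Ccr2; right, fibroblasts with (circles) and without (squares) Pi16 by library. Gas6 is at 725 in Lyve1 cells and 258 in Ccr2 cells while Axl and Cd74 lie the other way round. In fibroblasts Axl is higher and Mertk, at 10.9 CPM or less, lower with Pi16 in all 3 libraries.

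By likeness of pattern over the 7 sums of a class and library with at least 50 cells, the genes closest to Csf1 among 7481 were Clec11a (Pearson r of log2 values 0.997), which encodes a secreted growth factor of the bone marrow stroma, then Rflnb, Tceal8, Bet1l and Cul7. Clec11a stood at 162, 221 and 211 CPM in fibroblasts, at 23.4, 23.9 and 14.0 in smooth muscle and at 1.45 in macrophages. Closest to Gas6 were B3gnt8 (0.993), Sept11, Plscr1, Ube2l6 and Baiap2, with Sept11 at 79.5, 80.5 and 76.6 CPM in fibroblasts and 52.5 in macrophages. The 7 sums share 3 libraries and their depth, so these are descriptions with no test.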

How the data were processed

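Droplet-based 3′ single-cell RNA sequencing (Chromium v3) was done on the ascending aorta, per the labels' protocols. The submitters' processing notes list fastp, STAR 2.5, HTSeq 0.6.1 and the build mm10, with no roles. The deposited files hold raw UMI counts per gene and barcode, not normalised. The SHF baseline file lists 18760 genes under older names and the AngII files 32285, of which 18112 could be matched, 518 of them by synonym.

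Kept were cells in which 500 or more genes were detected and mitochondrial UMIs made up no more than 10%. Doublets (205, 191 and 277 cells, 2.01% to 2.65%) were marked with Scrublet in scanpy 1.11.5 and left out. UMIs were summed per class and library and scaled to CPM. A gene was called past 2-fold when log2((CPM + 1)/(CPM + 1)) reached 1 in size, among genes with a mean of at least 10 CPM. Intervals at 95% are exact Poisson (sums), conditional binomial (ratios) and Clopper-Pearson (shares), and cover counting error only. The summing and ratio steps were tested on simulated data. TMM factors came from edgeR 4.0.16. Sequences are RefSeq promoters, found for 5 of the 8 genes, and positions are from GENCODE M21, both on GRCm38, the assembly of mm10. The 8 genes, the lists, the class rules and the rule for likeness were chosen with earlier results of these data known. The genes named are the 8, those of the 4 lists, and the 5 nearest in pattern to Csf1 and to Gas6. Free RNA was measured against the references of the design. Hmgxb3, Tmem255b and the use of single fibroblast markers as a further measure of free RNA were chosen after their values were seen. Alternatives changed the cell filter, doublets, class rules, scaling, depth, pseudocount, thresholds and free RNA. The last 2 were added after the data were seen: smooth muscle without cells rich in macrophage RNA, and fibroblasts without cells holding Msln or Upk3b.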

Additional observations from a re-analysis of the deposited data

Results flagged for a closer look

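Csf1 and Gas6 had ratios of opposite sign in smooth muscle cells and fibroblasts of the SHF lineage, SHF AngII against SHF baseline. For Csf1 the log2 ratio was -0.16 in smooth muscle and 0.40 in fibroblasts. For Gas6 it was -0.61 in smooth muscle and 0.37 in fibroblasts. Csf1 also differed in sign between the 2 AngII libraries, CNC over SHF, at -0.22 in smooth muscle and 0.17 in fibroblasts. With 1 library per group this difference was not tested, and all 6 ratios lie within 2-fold.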

How the results depend on the processing

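Over 63 ratios of the 8 genes and 15 alternatives, 772 of 945 values stayed within the counting interval of the main ratio and 23 had the opposite sign. Only Cd74 reversed a called ratio: fibroblasts over smooth muscle in CNC AngII went from -3.24 to 0.13 with cells meeting both rules counted in both, to 1.47 with stricter class rules and to 0.13 with the macrophage rule without Lyz2. The number of members past 2-fold in smooth muscle, SHF AngII over SHF baseline, went from 1 to 0 with stricter class rules and with a mean of at least 50 CPM, and to 3 at a 1.5-fold limit. In fibroblasts it went from 1 to 2 with stricter class rules and with a mean of at least 1 CPM, to 0 at 50 CPM and to 3 at 1.5-fold. For CNC over SHF AngII in smooth muscle it went from 1 to 0 without the macrophage-rich cells and at 50 CPM, and to 2 at 1 CPM. In fibroblasts it went from 0 to 1 with cells of both rules counted in both, with stricter class rules, with the macrophage rule without Lyz2 and at 1.5-fold. For fibroblasts over smooth muscle in SHF baseline, Axl stayed on the same side of 2-fold under 10 of 15 alternatives. The count of that comparison went from 3 to 5 in SHF AngII at 1 CPM and from 4 to 2 in CNC AngII at 50 CPM. Where a threshold sets these counts, fewer or more genes were tested. The cause of the others was not tested. Mertk in smooth muscle, CNC over SHF AngII, went from 0.15 to -0.10 when cells were thinned. Depth limits what can be said of Il34 and of Csf1r outside macrophages, whose counts were low. No paired analysis was possible because each group is 1 library and the labels carry no replicate numbers.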

Other observations

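Cells that met no class rule held Csf1, Gas6, Axl and Mertk at levels between those of fibroblasts and smooth muscle in each library. Csf1 stood there at 70.8 CPM in 2169 cells of SHF baseline, 92.5 in 1999 cells of SHF AngII and 67.0 in 1211 cells of CNC AngII, between the fibroblast and smooth muscle levels of each library. Gas6 stood at 595, 695 and 349 CPM, also between them. Mertk, at 12.9, 8.85 and 12.4 CPM, lay between the smooth muscle and fibroblast levels too. The others lay above both stromal classes in some libraries: Cd74 at 269 CPM in CNC AngII and 35.8 in SHF AngII, Il34 at 2.22 in SHF baseline and 1.09 in CNC AngII, and Csf1r at 7.46 and Mif at 233 in CNC AngII. Of these 6 values, those of Il34 and Csf1r had counting intervals that included the fibroblast level.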
